A study of Mus musculus with 2 samples.

Results

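The genes described here hold T cells at rest and let them circulate. The 8 genes, Tcf7, Lef1, S1pr1, Klf2, Il7r, Bach2, Foxo1 and Satb1, were taken by symbol from the 56941 features of the series, with no threshold on a measured value. A resting T cell that has not met its antigen leaves the blood through lymph nodes, samples them, and returns to the blood along a gradient of sphingosine 1-phosphate. Foxo1 is the transcription factor upstream of this programme. It is known to drive Klf2, which in turn drives the egress receptor S1pr1, and to drive Il7r, the receptor chain for the survival cytokine interleukin-7. Tcf7 (the protein TCF1) and Lef1 are paired transcription factors that keep T cells in a naive or stem-like state. Bach2 is a repressor of effector genes and Satb1 is an organiser of chromatin in lymphocytes. Antigen signalling, effector differentiation and terminal exhaustion are known to turn this programme down.

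The cells came from liver metastases of MC38-LM3b, a line selected from the mouse colorectal cancer line MC38 for growth in the liver. Tumor cells were injected into the spleen of C57BL/6 mice aged 6 to 8 weeks, and lesions were taken 2 weeks later. In the Ctrl group the tumor cells carried the hairpin shScramble, and in the KD group they carried shSLAMF3, against the SLAM family receptor SLAMF3 (gene Ly9). The hairpins were in the tumor cells alone, so the T, NK and B cells measured here were unedited host cells in both groups. Each group was 1 library of CD45-selected cells, prepared from lesions of 3 mice that were pooled. Without replicate libraries no test could be made. The intervals given are 95% intervals that cover counting error only or, for shares of cells, the sampling of cells only.

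After the filters of the study, 9814 Ctrl and 10185 KD cells remained, with a median of 5412 and 4989 unique molecular identifiers (UMIs, counted mRNA molecules) per cell. The libraries shared 24 of the cell barcodes that were kept. Ly9 itself could not serve as a check of the hairpin, since tumor or fibroblast cells held 12 Ctrl and 7 KD UMIs of it. Levels are given as CPM, the UMIs of a gene as counts normalised to the sum of all UMIs of the same cells. A 3' library counts molecules by their ends, so CPM values were compared between genes without a length correction.

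T and NK cells were sorted into classes by clustering without the 8 genes, and each class was named from marker lists that hold none of them. Naive-like T cells (229 Ctrl, 383 KD) had Klra7, Nsg2, Sidt1 and Aff3 among their leading genes and passed 5 of 5 naive markers and 0 of 9 effector markers. None of the 6 T cell markers passed over the other T and NK clusters. The T cell receptor chain Cd3e was at 241 CPM in Ctrl and 232 CPM in KD naive-like cells, against 42.7 and 54.4 CPM in NK-like cells. The effector chemokine Ccl5 was at 2634 and 1827 CPM in the naive-like class. These cells also passed 3 of 8 NK markers, Klrb1c, Fcer1g and Tyrobp, but held Ncr1, a receptor of NK cells, at 11.5 and 11.4 CPM, against 414 and 469 CPM in NK-like cells. No UMI of Cd8a, Cd8b1 or Cd4 was found in 141 Ctrl and 180 KD of these naive-like cells. Effector-like CD8 T cells (643 and 370) were led by Gzma, Ccl5 and Gzmk, and passed 5 of 9 effector but also 6 of 7 exhaustion markers. Exhausted-like CD8 T cells (688 and 118) passed 5 of 7 exhaustion and 7 of 9 effector markers. Their leading genes were Gzme, Gzmd, Gzmf, Gzmc and Gzmg, with no exhaustion marker among the top 10, and 85.4% of them came from the Ctrl library. A small Ccr7+ Pdcd1+ CD8 class (84 and 41) passed 3 of 5 naive and 4 of 7 exhaustion markers. Cycling T cells (1159 and 484) passed at least 4 of 6 cell cycle markers in each of 3 clusters. CD4 T cells (131 and 341), Treg-like cells (78 and 118), innate-like T cells (31 and 114, led by Il4, Zbtb16 and Trdc), NK-like cells (189 and 233) and B cells (270 and 871) complete the set.

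Sequence upstream of the genes was also read. RefSeq promoters (build GRCm38.p6) were found for 7 of the 8 genes, in 15 windows of 300 bases, and 4 short motifs were searched on both strands. A forkhead word (GTAAACA), the kind bound by Foxo1, lay in 3.65% of 32851 promoters and in 1 of the 7 genes, Tcf7. The TCF/LEF word (CTTTGAT) lay in 3.73% of promoters and in none of the 7. The KLF word (CACACCC), the kind bound by Klf2, lay in 7.95% of promoters and in Tcf7 and Satb1. An ETS word (CCGGAAG) lay in 8.86% of promoters and in Tcf7 and Bach2. None of these matches is a measured binding site. The percentages are of single promoter windows, while a gene was counted if any of its windows held the word. Satb1 had 5 windows and Lef1 4, so the gene counts and the percentages are in unlike units. Shared regulation of the genes was not tested. The 100 bases before a start site are shown for the gene that held 3 of the 4 words, for a gene with 1, and for the receptor gene Il7r, which held none and had 1 CpG in its window. Capitals mark a KLF or ETS word, here read on the other strand, and each sequence runs 5′ to 3′ on the strand of the gene.
Tcf7, chr11:52282596-52282695, minus strand: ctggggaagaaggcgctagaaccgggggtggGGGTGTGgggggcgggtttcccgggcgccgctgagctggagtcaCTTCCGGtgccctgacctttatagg
Bach2, chr4:32417335-32417434, plus strand: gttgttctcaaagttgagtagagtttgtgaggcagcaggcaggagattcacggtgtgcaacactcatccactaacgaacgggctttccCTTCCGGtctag
Il7r, chr15:9529877-9529976, minus strand: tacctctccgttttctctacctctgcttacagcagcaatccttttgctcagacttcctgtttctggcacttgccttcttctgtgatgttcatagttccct

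Naive-like T cells held the highest level of 5 of the 8 genes among the lymphocyte classes, in both libraries. Tcf7 (ENSMUSG00000000782) was at 483 CPM in Ctrl and 517 CPM in KD naive-like cells. The Ccr7+ Pdcd1+ CD8 class came next with 398 and 434 CPM, and its interval overlapped that of the naive-like cells in each library. Innate-like T cells held 239 and 128 CPM of Tcf7, and their Ctrl interval, on 24 UMIs, overlapped that of the Ccr7+ Pdcd1+ CD8 class. NK-like cells held 214 and 130 CPM and CD4 T cells 120 and 103 CPM. Treg-like cells were at the bottom with 1 UMI of Tcf7 in each library.

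Lef1 (ENSMUSG00000027985) was at 738 and 940 CPM in naive-like cells, above every other class beyond counting error. The classes behind it differed between the libraries. In Ctrl, CD4 T cells (232 CPM) and NK-like cells (195 CPM) followed with overlapping intervals. In KD, innate-like T cells followed at 347 CPM, above the Ccr7+ Pdcd1+ CD8 class (135 CPM) and CD4 T cells (130 CPM). Satb1 (ENSMUSG00000023927), the most abundant of the 8 in naive-like cells, was at 1229 and 1232 CPM there. B cells held 1058 and 966 CPM of it, and cycling T cells 45.3 and 58.1 CPM.

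The 2 genes of egress were high in naive-like T cells and in B cells, which also recirculate. Klf2 (ENSMUSG00000055148) was at 766 and 605 CPM in naive-like T cells and at 477 and 545 CPM in B cells. In KD these 2 classes overlapped, and in Ctrl they did not. S1pr1 (ENSMUSG00000045092) was at 175 and 124 CPM in naive-like cells and at 116 and 117 CPM in B cells. Innate-like T cells held 149 and 35.8 CPM of S1pr1, on 15 and 16 UMIs, and 427 and 266 CPM of Klf2. In Ctrl their S1pr1 interval overlapped those of naive-like T cells and of B cells. Exhausted-like cells had the lowest S1pr1, with 21 UMIs in 688 Ctrl cells and 3 UMIs in 118 KD cells, or 4.12 and 3.12 CPM.

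Il7r (ENSMUSG00000003882) had its highest level in innate-like T cells, at 1262 CPM in Ctrl and 701 CPM in KD. Naive-like T cells held 505 and 633 CPM, and in KD the 2 classes overlapped. Treg-like cells differed most between the libraries in their place, with 149 CPM of Il7r in Ctrl and 331 CPM in KD. B cells, whose mature forms are known to lack the receptor, were lowest at 12.4 and 21.7 CPM.

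Bach2 and Foxo1 were highest in B cells. Bach2 (ENSMUSG00000040270) was at 1787 and 1950 CPM in B cells, at 1015 and 1087 CPM in naive-like T cells, and at 211 and 198 CPM in exhausted-like cells. Treg-like cells were lowest in Bach2, with 24.0 and 51.5 CPM. Foxo1 (ENSMUSG00000044167) was at 430 and 389 CPM in B cells and at 299 and 291 CPM in naive-like T cells. Its lowest level was 87.9 and 100.3 CPM, in cycling T cells. From the second class of the Ctrl order down to effector-like cells, each Foxo1 neighbour overlapped the next.

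**Figure D1:**
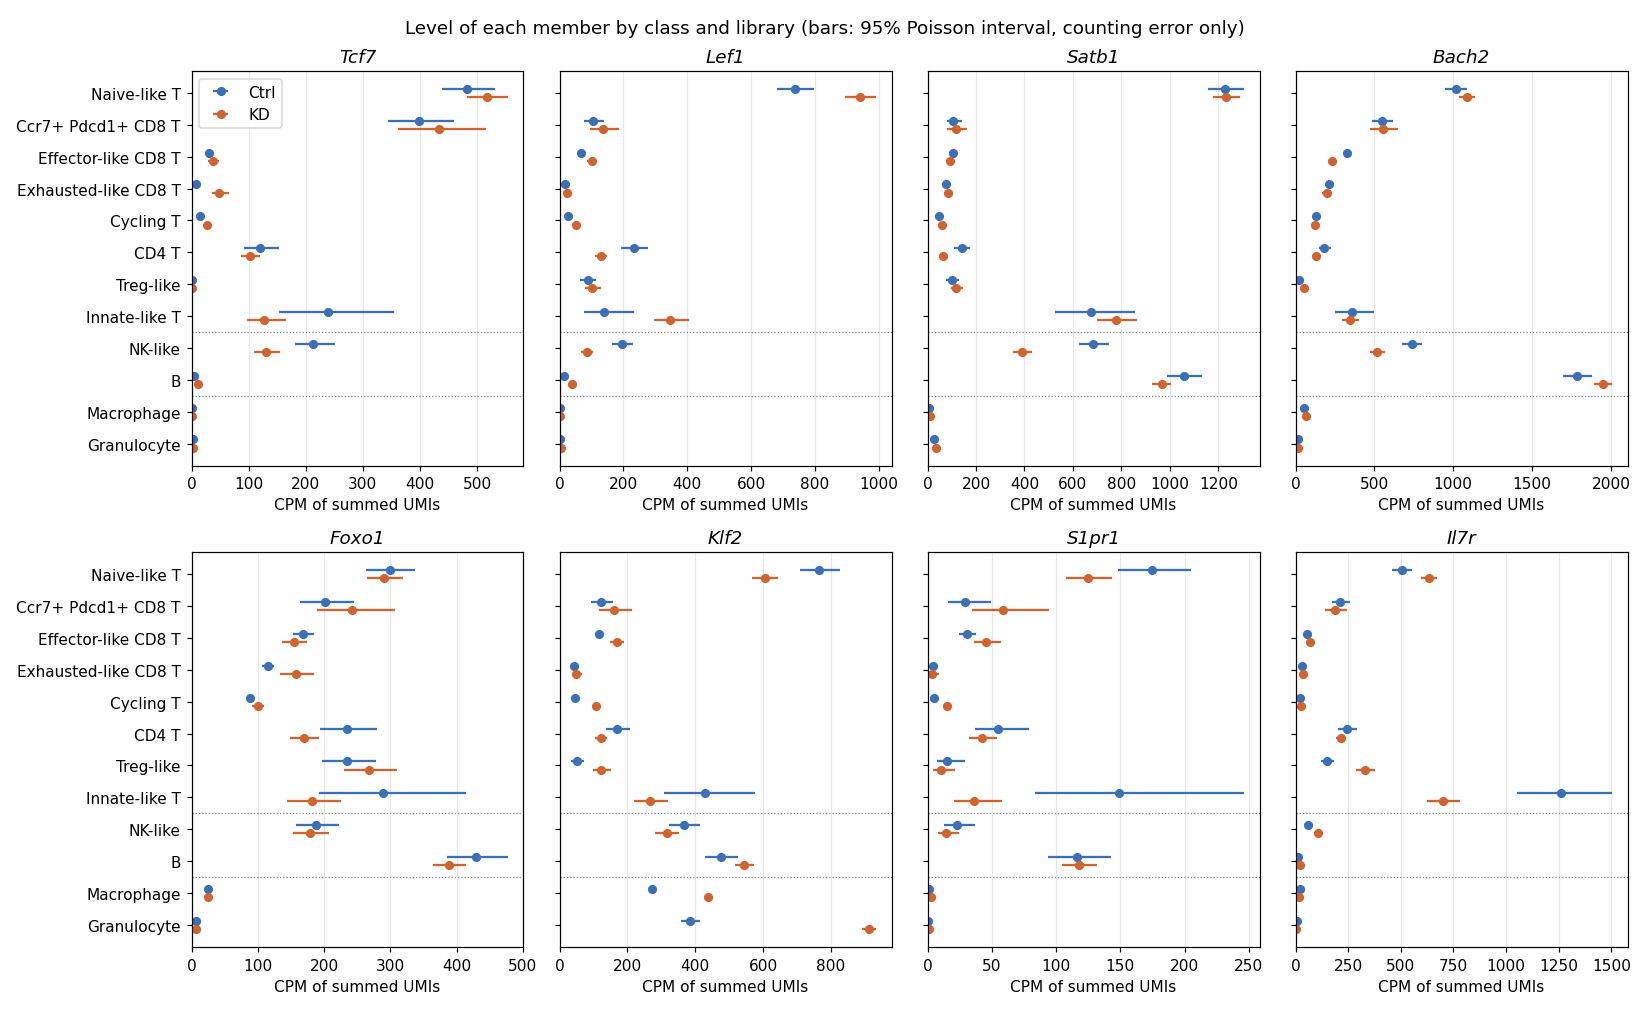
Level of each of the 8 genes in CPM, on linear axes that differ between genes, in the 10 lymphocyte classes and in macrophages and granulocytes, with Ctrl and KD as separate points and 95% Poisson intervals as bars. Among the lymphocyte classes, naive-like T cells hold the highest point for Tcf7, Lef1, S1pr1, Klf2 and Satb1 in both libraries, innate-like T cells for Il7r, and B cells for Bach2 and Foxo1.

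Some of the genes were also found outside lymphocytes. Klf2 was at 273 and 437 CPM in macrophages, at 386 and 912 CPM in granulocytes and at 690 and 544 CPM in endothelial cells, where it is a known gene of the response to flow. S1pr1 was at 147 and 173 CPM in endothelial cells. Tcf7 and Lef1 stayed at or below 7.67 CPM in macrophages, granulocytes, dendritic cells, endothelial cells and tumor or fibroblast cells of either library.

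Set against exhausted-like cells of the same library, naive-like cells were higher past 1.5-fold for 8 of 8 genes in Ctrl and for 8 of 8 in KD. Of all genes with at least 50 UMIs in the comparison, 20.9% were higher past this limit in Ctrl and 24.5% in KD. The median log2 ratio of the 8 genes was 4.08 in Ctrl and 3.76 in KD, against -0.06 and -0.01 over all genes. Since the 2 classes were made from the rest of the same cells' transcripts, these ratios describe the classes and test nothing.

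In Ctrl, the transcription factors Tcf7 and Lef1 and the egress receptor S1pr1 (5.41) had the largest ratios, and in KD S1pr1 and Lef1 did. The KD ratio of S1pr1, 5.32 (3.75 to 7.61), rested on 3 UMIs in exhausted-like cells. Lef1 went from 15.7 CPM in exhausted-like to 738 CPM in naive-like cells of Ctrl, a log2 ratio of 5.56 (5.22 to 5.91). The KD ratio of Lef1 was 5.30 (4.71 to 5.96). For Tcf7 the ratio was 5.98 (5.51 to 6.49) in Ctrl and 3.402 (2.98 to 3.86) in KD, where a few exhausted-like cells held most of its UMIs, as described further on. Klf2, Il7r and Satb1 lay between 3.63 and 4.13 in both libraries. Bach2 reached 2.27 and 2.46. Foxo1 had the smallest ratio, 1.37 (1.16 to 1.59) in Ctrl and 0.89 (0.62 to 1.16) in KD.

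The genes were also found together in single naive-like cells. To make depths equal, each cell was thinned to 1500 UMIs, and 107 Ctrl and 131 KD lymphocytes with fewer were set aside. Of thinned naive-like cells, 81.6% (75.7 to 86.7) in Ctrl and 84.9% (80.7 to 88.4) in KD had a UMI of at least 3 of the 8 genes. Innate-like T cells (60.7% and 49.1%) and B cells (49.4% and 54.8%) came next. The share was 8.11% and 9.92% in effector-like, 2.91% and 0.85% in exhausted-like, and 2.25% and 2.49% in cycling T cells. Macrophages gave 0.29% and 0.31%, at median depths of 5580 and 7426 UMIs before thinning, against 3778 and 4024 UMIs in naive-like cells. Without thinning, the shares were 94.8% and 95.04% in naive-like, 27.5% and 35.9% in effector-like, 24.6% and 36.4% in exhausted-like and 32.8% and 41.5% in cycling T cells, and 4.56% and 7.72% in macrophages, so the contrast between the T cell classes was smaller.

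CD4 T cells with 3 or more of the genes were 23.8% (16.7 to 32.2) of the class in Ctrl and 9.25% (6.37 to 12.9) in KD. These intervals treat the cells of 1 library as independent and cover no difference between mice or libraries. Taken one by one, Tcf7 was seen in 50.7% and 55.5% of thinned naive-like cells, or in 74.7% and 78.1% of them unthinned. In thinned exhausted-like cells it was seen in 0.87% and 0.85%, and in thinned macrophages in 0.10% and 0.35%.

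**Figure D2:**
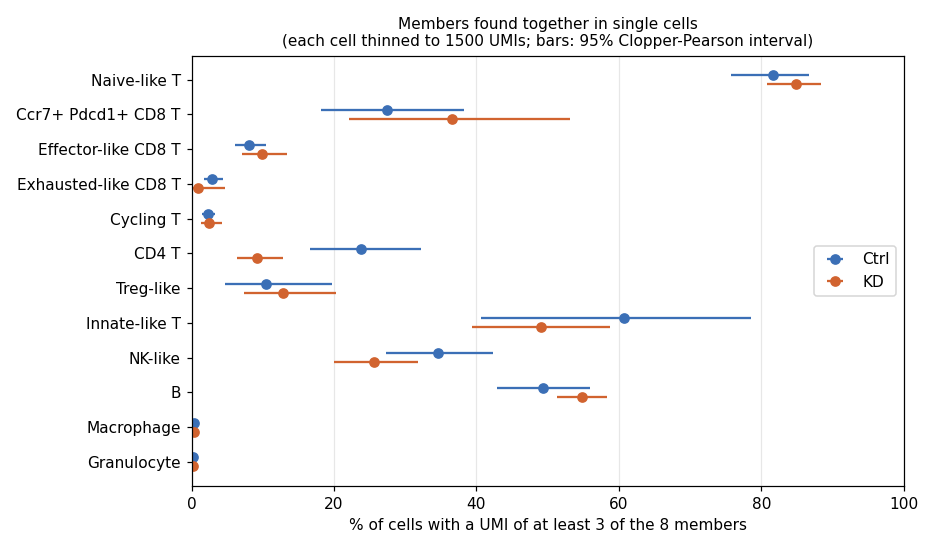
Share of cells with a UMI of at least 3 of the 8 genes, in percent, by class and library, after thinning each cell to 1500 UMIs, with 95% Clopper-Pearson intervals as bars. Naive-like T cells stand at 81.6% and 84.9%, while exhausted-like and cycling T cells lie below 3%.

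The comparison of KD with Ctrl asks whether the programme differed in the T cells around tumor cells with less SLAMF3. Over all T cells (3043 Ctrl, 1969 KD), 6 of the 8 genes were higher in KD past 1.5-fold and none was lower. Among all genes tested, 8.3% were higher and 5.27% lower past that limit. Lef1 went from 62.3 to 195 CPM, a log2 ratio of 1.65 (1.55 to 1.74). Il7r went from 62.1 to 178 CPM, a ratio of 1.52 (1.42 to 1.61). Tcf7 went from 42.3 to 114 CPM, a ratio of 1.43 (1.31 to 1.55). Satb1, S1pr1 and Klf2 had ratios of 1.19, 1.19 and 1.11. Bach2 (0.45) and Foxo1 (0.42) stayed within the limit. The median of the 8 genes was 1.19 and that of all genes -0.02.

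The mix of T cell classes differed between the libraries along with these levels. Naive-like cells were 7.53% (6.61 to 8.52) of Ctrl and 19.5% (17.7 to 21.3) of KD T cells. CD4 T cells were 4.30% and 17.3%, exhausted-like cells 22.6% and 5.99%, and cycling cells 38.1% and 24.6%. When both libraries were given the same class weights, the mean of their shares of T cell UMIs, the ratios of the 8 genes lay between -0.07 and 0.38 with a median of 0.07. Lef1 kept the highest of these, 0.38, from 109 CPM in Ctrl to 142 CPM in KD. Naive-like cells supplied 41.1% of the Tcf7 UMIs of all Ctrl T cells and 58.1% of those in KD. For Satb1 these shares were 41.0% and 64.0%. For Foxo1 they were 8.97% and 23.3%, and cycling cells supplied 41.8% and 26.3%.

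**Figure D3:**
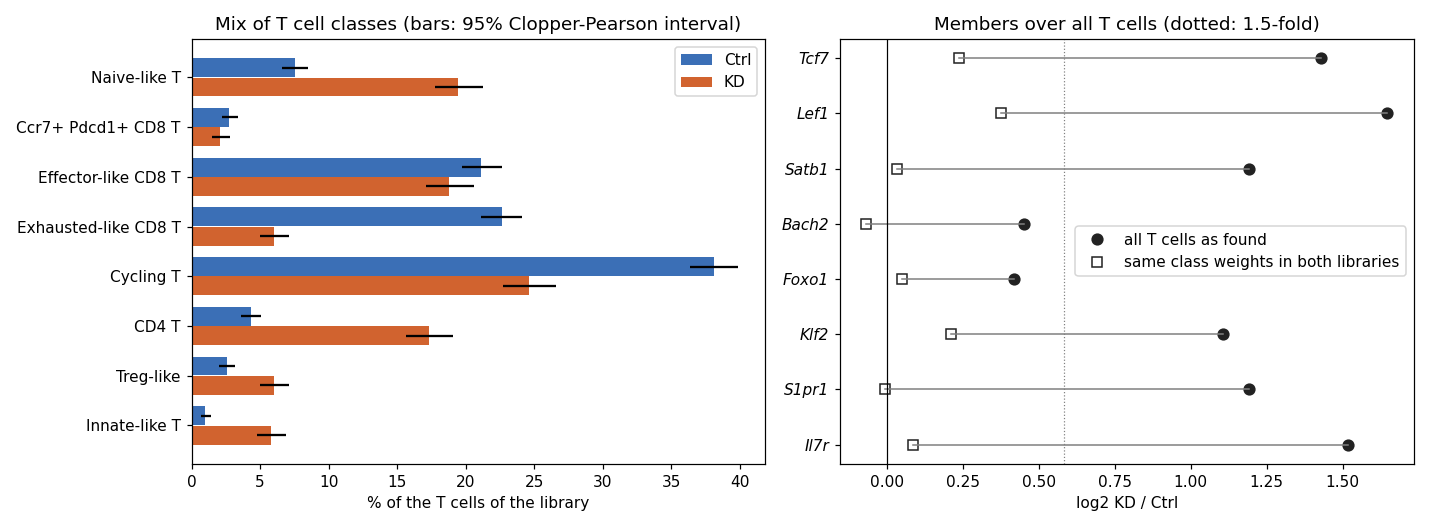
Left, share of each T cell class among the T cells of a library in percent, with 95% Clopper-Pearson intervals. Right, log2 ratio of KD over Ctrl for each of the 8 genes over all T cells, as measured and with the same class weights in both libraries; the weighted values lie between -0.07 and 0.38.

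Within naive-like T cells, 0 of the 8 genes were higher and 0 lower past 1.5-fold, where 4.44% of all genes were higher and 7.14% lower. Lef1 (738 and 940 CPM) had a log2 ratio of 0.35 (0.21 to 0.49) and Il7r (505 and 633 CPM) one of 0.33 (0.16 to 0.49). Klf2 and its target S1pr1 lay on the other side, at -0.34 (-0.49 to -0.20) and -0.49 (-0.80 to -0.17). Tcf7, Bach2, Foxo1 and Satb1 had intervals that held 0. In naive-like cells that held Cd8a or Cd8b1 UMIs but none of Cd4 or of NK genes (72 Ctrl, 162 KD), S1pr1 was at 168 and 92.2 CPM, a ratio of -0.87 (-1.39 to -0.35). Klf2 in those cells was at -0.45 (-0.67 to -0.23), so both genes were lower in KD by this stricter choice too. By the same choice Lef1 was at 0.25 (0.05 to 0.46). Il7r was then at 0.12, with an interval that held 0 (-0.12 to 0.36). Across 9 alternative settings Klf2 stayed negative, from -0.45 to -0.21. S1pr1 ran from -0.87 to 0.37, and 8 of the 9 kept its sign. The share of all naive-like cells with a Klf2 UMI was not lower in KD, at 64.2% in Ctrl and 72.3% in KD. After thinning it was 46.9% and 48.5%. For S1pr1 these shares were 40.6% and 35.0%, and after thinning 21.7% and 20.4%.

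In effector-like CD8 T cells, 1 of the 8 genes was higher past 1.5-fold and none lower, with 2.61% of all genes higher and 4.26% lower. This was Lef1, from 66.5 to 100.7 CPM, at 0.60 (0.29 to 0.91). S1pr1 (30.5 and 45.6 CPM) and Klf2 (117 and 169 CPM) lay just under the limit at 0.58 (0.11 to 1.05) and 0.52 (0.29 to 0.76). Bach2 pointed the other way, from 328 to 234 CPM, at -0.49 (-0.66 to -0.31). Which genes passed the limit depended on the choice of cells. In effector-like cells with Cd8a or Cd8b1 UMIs but none of Cd4 or of NK genes (531 Ctrl, 293 KD), Lef1 was at 0.575, inside the limit. S1pr1 (0.71) and Klf2 (0.594) were past it there, and Bach2 was at -0.41.

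Exhausted-like CD8 T cells had 2 of 7 tested genes higher past 1.5-fold and none lower, where 4.51% of all genes were higher and 8.72% lower. Neither held up. Tcf7 was at 7.64 CPM in Ctrl and 48.9 CPM in KD, a ratio of 2.68 (2.03 to 3.33), but it came from 39 UMIs in 19 of 688 Ctrl cells and 47 UMIs in 11 of 118 KD cells. The 5 KD cells with the most Tcf7 held 34 of the 47 UMIs. Without likely doublets the Tcf7 ratio was -0.64, and after thinning it was -1.14. The thinned ratio rested on few cells, since 6 of 688 Ctrl and 1 of 117 KD cells then held a Tcf7 UMI. For Lef1 these were 17 and 2 cells. Of 8 alternative settings, 6 kept the sign as reported, for Tcf7 and also for Lef1. Lef1 (15.7 and 23.9 CPM) was at 0.61 with an interval that held 0 (-0.13 to 1.29), and it became -0.07 and -0.61 under the same changes. The other genes of the class lay between -0.40 and 0.44, and Foxo1 alone of these had an interval above 0 (0.18 to 0.70).

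**Figure D4:**
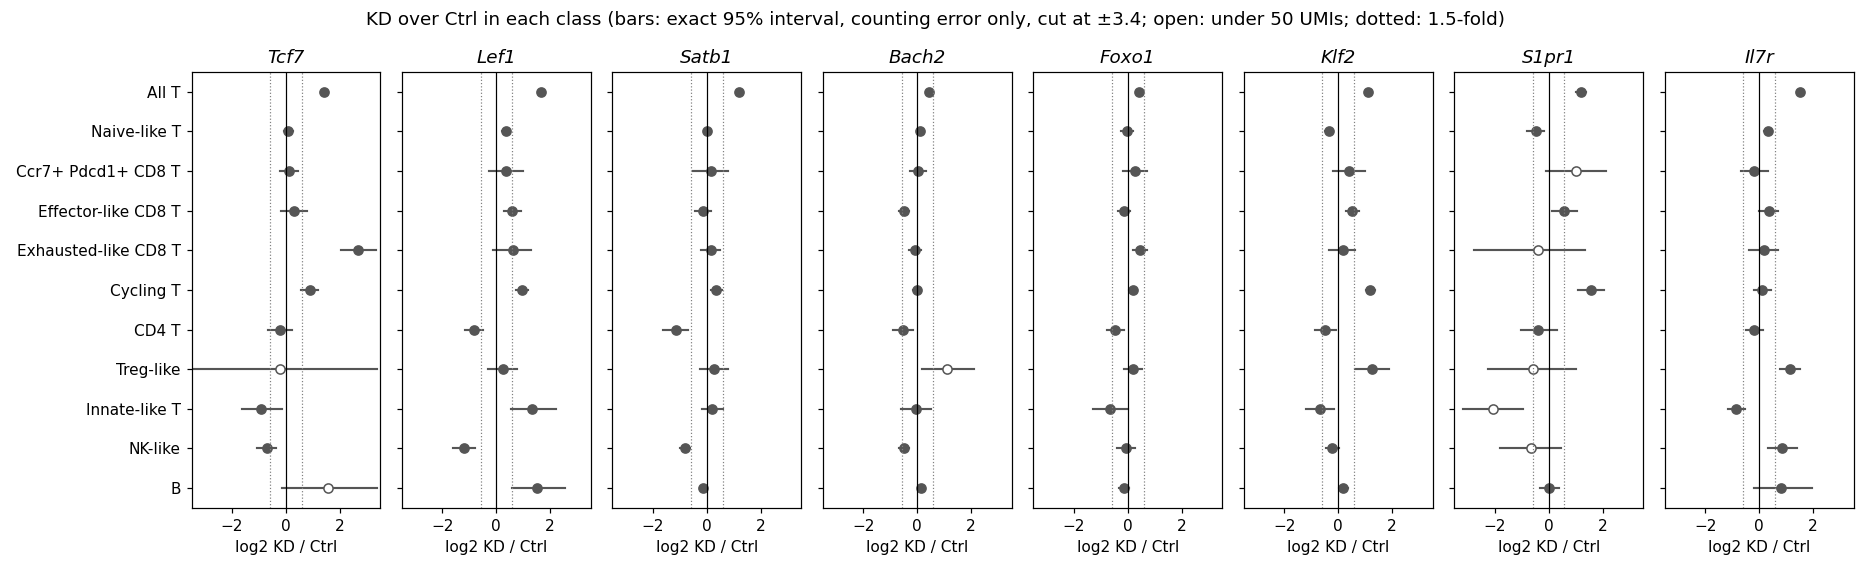
Log2 ratio of KD over Ctrl for each of the 8 genes over all T cells and in each lymphocyte class, with exact 95% intervals for counting error as bars, cut where they pass the axis, and open points where a gene had under 50 UMIs. Ratios in naive-like cells lie within 0.5 of 0, while Tcf7 in exhausted-like cells reaches 2.68 on 39 and 47 UMIs.

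Cycling T cells were the class where several of the genes were higher in KD. Of the 8 genes, 4 were higher past 1.5-fold and none was lower, against 3.81% of all genes higher and 5.49% lower. Klf2 went from 46.8 to 107 CPM, a ratio of 1.198 (1.03 to 1.36), and S1pr1 from 5.15 to 15.3 CPM, a ratio of 1.57 (1.09 to 2.05). Lef1 was at 0.95 (0.72 to 1.19) and Tcf7 at 0.89 (0.57 to 1.21). The Tcf7 UMIs came from 46 of 1159 Ctrl and 39 of 484 KD cells. In each library the 5 cells with the most Tcf7 held 82 of 204 and 45 of 142 UMIs. Il7r, Bach2, Foxo1 and Satb1 lay between -0.02 and 0.36.

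The Klf2 difference was seen in each of the 3 cycling clusters, at 1.24, 1.16 and 1.31 log2. Those of Tcf7 and Lef1 were not: in the cluster led by Stmn1 and the Mcm genes of DNA replication, Tcf7 was at 0.24 (-0.75 to 1.17) and Lef1 at 0.18 (-0.43 to 0.77). KD cycling cells also held more of some genes of NK and effector cells, with Ncr1 at 1.02 CPM in Ctrl and 24.0 CPM in KD and Gzma at 201 and 2455 CPM. In cycling cells that held Cd8a or Cd8b1 UMIs but none of Cd4 or of NK genes (1082 and 396), the ratio of Klf2 was 1.16 and that of S1pr1 1.43. Lef1 was then at 0.75 and Tcf7 at 0.63.

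Klf2 is abundant in myeloid cells, so marker genes of those cells were summed in the same cycling cells. The 6 granulocyte markers summed to 21.5 CPM in Ctrl and 121 CPM in KD cycling T cells, with none of the 6 at 0. At the ratio of Klf2 to these markers in granulocytes, that sum corresponds to 0.14 and 1.05 CPM of Klf2. The 9 macrophage markers summed to 288 and 317 CPM, which at their ratio in macrophages corresponds to 5.40 and 7.61 CPM of Klf2. They include Ly6c2, which was also among the leading genes of effector-like CD8 T cells here. The measured difference in Klf2 was from 46.8 to 107 CPM. The part played in it by transcripts of myeloid cells was not tested. In every T cell class the granulocyte sum was higher in KD, 17.2 to 89.5 CPM in Ctrl and 121 to 298 CPM in KD.

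**Figure D5:**
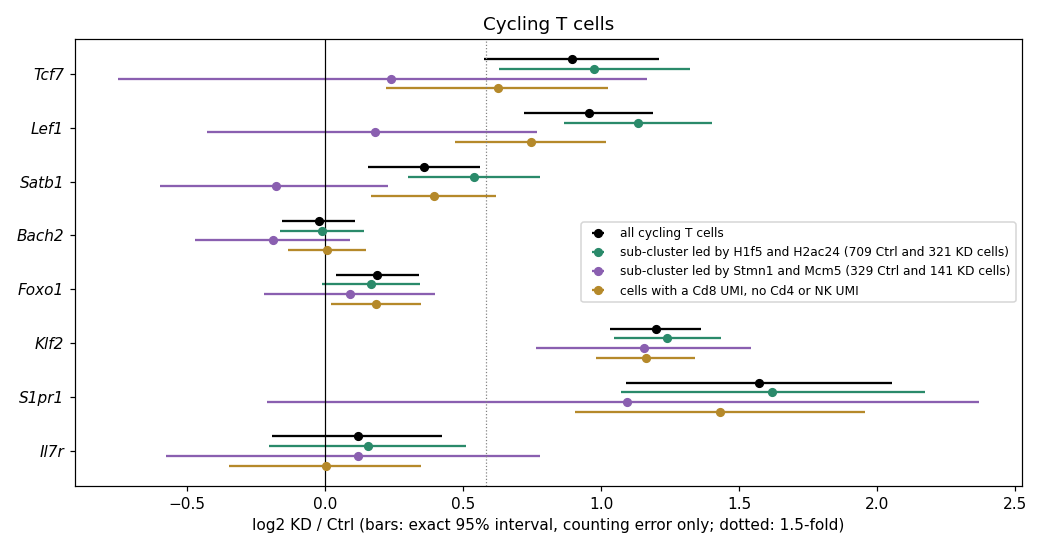
Log2 ratio of KD over Ctrl of the 8 genes in cycling T cells, for all of them, for the 2 larger cycling clusters and for the cells chosen by Cd8 UMIs, with exact 95% intervals for counting error. Klf2 lies between 1.16 and 1.24 in these sets, while Tcf7 ranges from 0.24 to 0.98.

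The smaller T cell classes moved in different ways. In CD4 T cells 2 of 8 genes were lower past 1.5-fold and none higher, where 6.28% of all genes were lower and 5.86% higher. Lef1 (232 and 130 CPM) was at -0.83 (-1.17 to -0.49) and Satb1 (141 and 63.3 CPM) at -1.15 (-1.61 to -0.69). In Treg-like cells 2 of 5 tested genes were higher and none lower, where 8.75% of all genes were higher and 10.4% lower. Klf2 (51.5 and 122 CPM) was at 1.25 (0.63 to 1.90) and Il7r (149 and 331 CPM) at 1.15 (0.79 to 1.52). The innate-like class, with 31 Ctrl cells, had 1 of 7 tested genes higher and 4 lower, where 14.7% of all genes were higher and 18.6% lower. Higher was Lef1 at 1.32 (0.53 to 2.22). Lower were Tcf7 at -0.90 (-1.61 to -0.15), Il7r at -0.85 (-1.15 to -0.54), Klf2 at -0.68 (-1.196 to -0.14) and Foxo1 (288 and 181 CPM) at -0.67 (-1.30 to -0.0036). With the libraries scaled by TMM instead of by total UMIs, Klf2 was at -0.45 and Foxo1 at -0.44, inside the limit. This class mixes cells with Il4, with Il17a and with Trdc transcripts, and the share of each was not compared. In the Ccr7+ Pdcd1+ CD8 class none of the 7 genes with at least 50 UMIs passed the limit, where 4.92% of all genes were higher and 8.8% lower, and their intervals held 0.

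In NK-like cells several of the genes were lower in KD. Of 7 genes tested, 3 were lower in KD past 1.5-fold and 1 was higher, where 7.93% of all genes were lower and 4.65% higher. Lef1 went from 195 to 85.3 CPM, at -1.19 (-1.61 to -0.79). Satb1 went from 685 to 391 CPM, at -0.81 (-1.005 to -0.61), and Tcf7 from 214 to 130 CPM, at -0.71 (-1.06 to -0.36). Il7r went from 59.8 to 109 CPM, at 0.86 (0.34 to 1.42).

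Some cells of this class held transcripts of the T cell receptor complex, 46 of 189 in Ctrl and 91 of 233 in KD. In those without a Cd3e, Cd3d or Cd3g UMI (143 and 142), the ratios were -1.25 for Lef1, -0.61 for Satb1 and -0.58 for Tcf7. Il7r, which marks innate lymphoid cells and immature NK cells, was at 36.6 and 140 CPM there, a ratio of 1.94 (1.18 to 2.77).

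In B cells, 2 of 7 genes tested were higher past 1.5-fold and none was lower, with 4.93% of all genes higher and 6.41% lower. These were the T cell genes Lef1 (13.6 and 38.6 CPM, 1.504) and Il7r (12.4 and 21.7 CPM, 0.81), and the interval of Il7r held 0 (-0.18 to 1.95). Without cells that had a Cd3 UMI, Lef1 was at 0.73 (-0.26 to 1.86). Il7r then had 0 UMIs in 233 Ctrl cells, with an interval of up to 5.50 CPM, and 25 UMIs in 802 KD cells, or 11.4 CPM. The 5 genes that B cells hold in quantity, Bach2, Satb1, Klf2, Foxo1 and S1pr1, lay between -0.14 and 0.19.

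Other genes of the same pathways were counted over all T cells, beside the 8.3% of genes higher and 5.27% lower given above. Of 14 further quiescence genes, 5 were higher and none lower in KD, with a median of 0.50. The largest ratios among them were those of Pik3ip1, an inhibitor of PI3 kinase (1.42), Klf3 (1.32) and Tsc22d3, the glucocorticoid-induced leucine zipper (1.18). Among homing receptors, the integrin chain Itgb7 (33.8 and 75.7 CPM) was at 1.16 and the chemokine receptor Cxcr4 (48.6 and 101 CPM) at 1.05, while Itga4 was at 0.14, Cd44 at 0.10 and Itgal at -0.03.

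Genes of the sphingosine 1-phosphate pathway other than S1pr1 behaved differently. Of 6 tested, none was higher and 1 was lower, the kinase Sphk2 (-0.63), while the receptor S1pr4 was at 0.52 and Cd69, which removes S1PR1 from the cell surface, at 0.35. Of 9 interleukin-7 signalling genes, 2 were higher and none lower. These were the survival gene Bcl2 (102 and 347 CPM, 1.76) and the feedback inhibitor Cish (0.72), with Socs1 at 0.46. Of 7 partners of TCF1 and LEF1, 3 were higher, the corepressor Tle1 (1.67), Id3 (1.28) and Bcl6 (0.82). Of 11 factors of effector or terminal differentiation 1 was higher, Maf (1.73), while Zeb2 was at -0.35 and Batf at 0.34, and the median was -0.0046.

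In naive-like cells alone the same lists had fewer genes higher in KD and more lower, beside 4.44% of all genes higher and 7.14% lower. Quiescence genes had 1 of 14 higher, Pik3ip1 (40.2 and 76.2 CPM, 0.92). Lower in KD were the homing receptors Cxcr4 (-0.68) and Cd44 (-0.71), and 2 of 5 genes of the sphingosine pathway, S1pr4 (-1.41) and the activation marker Cd69 (-0.61). Of 9 interleukin-7 signalling genes 1 was lower, Cish (44.8 and 24.1 CPM, -0.89), and of 6 partners of TCF1 and LEF1 also 1, the transcription factor Myb (-0.72). Of 10 effector or terminal factors, 4 were lower, Nr4a1 (-0.94), Maf (-0.83), Nr4a3 (-0.77) and Irf4 (-0.63), of which Nr4a1, Nr4a3 and Irf4 are induced by antigen receptor signals. In cycling T cells, where 3.81% of all genes were higher and 5.49% lower, the homing receptors Itgb7 (1.46), Cxcr4 (1.23) and Ccr7 (0.75) were higher, while Cd44 and Itgal were both at -0.01. The genes in this paragraph were named after their values were seen.

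Across 31 points, the classes of each library with at least 50 cells, the profiles of the 8 genes were compared with one another and with 8997 genes, as Pearson r of log2 of CPM plus 10. The points share libraries and some are related classes, so the values are descriptions. Tcf7 and Lef1 were most alike among the 8 (r = 0.86), followed by Bach2 and Satb1 (0.84). Klf2 stood apart, with r from -0.06 to 0.36 against the other 7. The genes nearest to Lef1 were Sidt1 (0.95), Rnf138 (0.93) and Skap1 (0.91), and those nearest to Il7r were Kbtbd11 (0.96), Cxcr3 (0.91) and Prrt1 (0.90). Tcf7 had Bicdl1 (0.89), Samd3 (0.89) and Apol7e (0.87). Satb1 had Fhit (0.91), Arid4b (0.91) and Gpr18 (0.90). Foxo1 had Gimap6 (0.93), Msh3 (0.91) and Cnot6l (0.91). For Klf2 the nearest were Wdr26 (0.87), its relative Klf3 (0.86) and Txnip (0.85). Bach2 was nearest to Smg1 (0.89), Acss1 (0.88) and Pde3b (0.87), and S1pr1 to Bcas3 (0.87), Prkd2 (0.87) and Rbm5 (0.85).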

How the data were processed

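Droplet-based 3' single-cell RNA sequencing (10x v3.1) was performed on 2 libraries. The authors deposited raw UMI counts for every gene and cell, made with Cell Ranger 7.1.0 on GRCm39 according to the submitters' processing notes. The study's limits (at least 200 genes, at most 10% mitochondrial UMIs, 30000 UMIs and 6000 genes) kept 19999 of 21359 cells and were its only treatment of doublets. As an alternative, 868 Ctrl and 958 KD likely doublets (Scrublet in scanpy 1.11.5) were left out. The kept libraries held 64259327 and 61698394 UMIs.

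Cells were clustered in Seurat 5.3.0 (R 4.3.3) with 2000 variable genes, 20 principal components and resolution 0.5. T and NK cells were clustered again at 0.8 with the 8 genes left out of the variable genes. A marker counted at a log2 fold of 0.5 over the median of the other T and NK clusters in 10% of cells. That reference and the rule for innate-like cells were chosen once the clusters were known. Clusters of low depth (320 Ctrl, 89 KD cells) or led by genes of other lineages (267 and 230) stayed unnamed. Names may differ from those of the study because they were rebuilt.

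UMIs were summed by class. CPM have exact Poisson intervals, ratios exact conditional binomial intervals and shares Clopper-Pearson intervals (scipy 1.17.1). Genes with at least 50 UMIs were tested against the limit of 1.5-fold. Where a count was 0, the limit given is the upper end of its Poisson interval. The method was tested on simulated data for the cycling T cells: of 197 genes changed 2-fold among 10653, 94.4% were called in the right direction, 2.16% of unchanged genes were called, and 95.5% of intervals held the true ratio. These counts were drawn with Poisson error alone, the error for which the intervals are built. They had no spread between cells, mice or libraries, so the 2.16% is not an error rate for the calls of KD over Ctrl. The text names the 8 genes in every class, the 3 genes of the largest ratio over all T cells from each companion list, and the 3 genes of most similar profile. One homing receptor and the counts of that list are not reported here, and other members of the list were named after their values were seen. Genes, lists and comparisons were chosen with earlier results of these data known.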

Additional observations from a re-analysis of the deposited data

Results flagged for a closer look

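Some of the 8 genes differed between the libraries in opposite directions in different classes, with intervals that excluded 0. Each group was 1 library, so the difference between classes was not tested. The values are log2 ratios of KD over Ctrl. Tcf7 was at 2.68 in exhausted-like and 0.89 in cycling T cells, and at -0.90 in innate-like T and -0.71 in NK-like cells. Lef1 was at 0.60 in effector-like, 0.95 in cycling, 1.32 in innate-like T and 1.504 in B cells, and at -0.83 in CD4 T and -1.19 in NK-like cells. Klf2 was at 1.198 in cycling and 1.25 in Treg-like cells, and at -0.68 in innate-like T cells. Il7r was at 1.15 in Treg-like and 0.86 in NK-like cells, and at -0.85 in innate-like T cells. The innate-like class had 31 Ctrl cells, and with TMM scaling its Klf2 ratio was -0.45, inside the limit of 1.5-fold. The part played by its mix of cells was not tested. In cells without a Cd3 UMI, Lef1 was at 0.73 (-0.26 to 1.86) in B cells and at -1.25 in NK-like cells. Tcf7 in exhausted-like cells was at -0.64 without likely doublets and at -1.14 after thinning, the reverse of its direction above. After thinning, 6 of 688 Ctrl and 1 of 117 KD cells held a Tcf7 UMI.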

How the results depend on the processing

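With 1 library of 3 pooled mice in each group, differences between mice and between libraries cannot be told apart from the hairpin. No paired analysis was possible because each group has 1 sample, and for the same reason no run without a replicate exists. Depth limits S1pr1 and the small classes most.

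Of 78 recomputed medians of the 8 genes, 68 stayed inside the interval set for the median. That interval averages the counting limits of the 2 middle genes, so a sparse gene among them widens it. In NK-like cells, where S1pr1 was one of them, it ran from -1.25 to 0.07. Over all T cells the median log2 ratio of KD over Ctrl, 1.19 as reported, was 1.00 after thinning, 0.96 as a mean of single cells and 0.069 with the same class weights, where S1pr1 was at -0.0067. In naive-like cells it was 0.31 with classes set by single cells, against 0.05. In exhausted-like cells thinning gave -0.47 against 0.17, with Tcf7 at -1.14 and Lef1 at -0.61. On the KD side these 2 rested on 1 and 2 of 117 cells with a UMI. Without likely doublets Tcf7 and Lef1 were at -0.64 and -0.070. Of the ratios of single genes, KD over Ctrl, 19 of 54 moved beyond their counting interval with classes set by single cells, 21 of 55 moved and 2 reversed after thinning, 10 of 56 moved as a mean of single cells, and 1 of 55 moved and 2 reversed without doublets. The B cell median was -0.042 as a mean of single cells. The ratio of naive-like over exhausted-like cells had a median of 3.88 with classes set by single cells and 3.83 with TMM scaling in Ctrl, and of 4.16 without doublets and 4.50 after thinning in KD. The cause of these changes was not tested. TMM scaling (edgeR 4.0.16) shifted all log2 ratios by -0.25 in that Ctrl comparison, and by 0.23, 0.13 and 0.11 in innate-like T, CD4 T and NK-like cells. The share of all genes past the limit, 2.61% to 8.72% over all T, naive-, effector- and exhausted-like, cycling, NK-like and B cells, was 16.7% to 37.2% with no minimum of UMIs, 5.93% to 12.9% with a minimum of 20, and 0.30% to 3.43% with a limit of 2-fold. Setting classes by single cells gave no innate-like class. Choosing cells by Cd8, Cd4, NK and Cd3 UMIs was added after seeing the data.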
